A study of Mus musculus with 18 samples.

Results

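A set of 10 genes that mark plasma cells or serve antibody secretion was followed through RNA sequencing of the mouse choroid plexus. They are Jchain, Mzb1, Prdm1, Irf4, Xbp1, Sdc1, Derl3, Fkbp11, Pou2af1 and Slamf7. They were chosen by name as rows of the deposited table, with earlier results of these data known, and all 10 were among its 50584 genes. The choroid plexus secretes cerebrospinal fluid from an epithelium that lines vascular folds inside the ventricles of the brain. Libraries came from MRL/lpr mice, whose Fas gene is the lpr allele and which develop a disease like lupus, and from MRL/+ mice, the control strain that shares the MRL background and has an intact Fas. There were 6 MRL/lpr and 3 MRL/+ libraries at 12 weeks of age, and 6 MRL/lpr and 3 MRL/+ libraries at 16 weeks. The tissue was flash frozen after removal, and the labels name no treatment and do not say whether a library is 1 animal or a pool, so the tests compare samples and their spread may be technical. The lpr allele is carried in every cell, so the strain comparison is not specific to any cell type.

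Plasma cells are the antibody-secreting end stage of the B cell lineage. The transcription factors Irf4, Prdm1 (Blimp-1) and Xbp1 drive the change from B cell to plasma cell, shut down the B cell programme and enlarge the endoplasmic reticulum, where antibody chains are folded and joined. Some of these genes are also used outside the lineage: Xbp1 and Fkbp11 serve secretory cells in general, Sdc1 is made by many epithelia, and Irf4, Prdm1, Pou2af1 and Slamf7 are also found in other lymphocytes. The comparisons asked which members differed between the strains at each age, which were already present in the control choroid plexus, and whether any moved between the ages.

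Of the 10 members, 9 matched an entry in the RefSeq promoter table (GRCm38.p6), and the 250 bases before each start were searched for elements that bear on this programme. Both strands were read, and the last bases of the second element below, CCACG, also stand in the first when it is read on the other strand. The unfolded protein response element TGACGTGG, to which spliced XBP1 and ATF6 are known to bind, was found before Pou2af1, and the endoplasmic reticulum stress element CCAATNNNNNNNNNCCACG was found before Derl3 on the strand opposite to the gene. These windows are shown because they are the member promoters that held an element, with the fixed letters of the match in capitals. That of Pou2af1 is chr9:51213440-51213689 on the plus strand, with the match 61 to 54 bases before the start, and that of Derl3 is chr10:75893148-75893397 on the plus strand, with the match 156 to 138 bases before the start.
Pou2af1: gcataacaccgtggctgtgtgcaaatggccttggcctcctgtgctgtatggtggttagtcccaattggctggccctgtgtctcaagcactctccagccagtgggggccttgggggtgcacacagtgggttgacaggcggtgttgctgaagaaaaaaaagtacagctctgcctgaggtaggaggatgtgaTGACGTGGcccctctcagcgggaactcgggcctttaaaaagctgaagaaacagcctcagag
Derl3: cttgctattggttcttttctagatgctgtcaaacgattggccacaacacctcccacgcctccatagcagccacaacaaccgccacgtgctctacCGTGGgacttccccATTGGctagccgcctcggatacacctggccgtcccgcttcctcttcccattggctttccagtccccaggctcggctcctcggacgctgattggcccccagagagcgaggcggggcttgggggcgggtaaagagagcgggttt
Over all 32851 promoters of the table, 185 (0.563%) held the unfolded protein response element and 37 (0.113%) the endoplasmic reticulum stress element. The octamer ATGCAAAT, the sequence read by the Oct factors that Pou2af1 assists, stood in 526 promoters (1.6%) and in none of the 10 windows of the 9 matched members, of which Fkbp11 has 2. The paired interferon regulatory factor core GAAANNGAAA stood in 978 promoters (2.98%) and in none of those windows. The windows of Prdm1 (chr10:44458749-44458998) and Slamf7 (chr1:171649000-171649249) lie inside these minus-strand genes, which extend to 44528501 and 171653035 in the deposited table. The bases before those outer ends were not searched. These matches describe letters in a window and were not tested as binding sites.

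Total counts ran from 11164284 to 14602253 over the 18 libraries. Levels are CPM, the count of a gene relative to its library's size as scaled by TMM, and a gene was called at an adjusted p under 0.05 in edgeR's quasi-likelihood test over 16598 genes. All 10 members passed the filter on low counts. The tissue label was borne out by 19 epithelium markers, none at 0 in any group. Their summed level was 205500 to 317500 CPM in MRL/lpr and 194100 to 278800 CPM in MRL/+ at 12 weeks. At 16 weeks it was 162500 to 293600 CPM in MRL/lpr and 279100 to 324900 CPM in MRL/+. Most of the sum was Ttr and Enpp2, named after their values were seen. They averaged 161600 and 72250 CPM in MRL/+ at 12 weeks, where no other marker averaged above 3226 CPM. A group of 4 libraries carried the most pineal, cerebellum or skeletal muscle transcripts. MRL/lpr replicates 1 and 4 of 12 weeks had 122 and 93.8 CPM of pineal markers, against 26.4 to 53.2 CPM in MRL/lpr of 16 weeks. MRL/+ replicate 1 of 12 weeks had 475.7 CPM of cerebellum markers, and MRL/+ replicate 1 of 16 weeks had 615 CPM of skeletal muscle markers. Other libraries also held such transcripts. Cerebellum markers were at 260.8 CPM in MRL/lpr replicate 2 of 12 weeks and 254.5 CPM in MRL/lpr replicate 1 of 16 weeks. Pituitary markers were highest in MRL/lpr replicates 3 and 2 of 12 weeks, at 88.1 and 85.6 CPM.

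The members Jchain, Mzb1, Derl3, Irf4, Prdm1, Pou2af1 and Slamf7 were higher in MRL/lpr at both ages. At 12 weeks 7 of the 10 members were called higher, against 5.01% of all genes tested, and at 16 weeks 7 of 10, against 8.49% of all genes tested. The same 7 genes made up both counts, and no member was called lower. Since the members were chosen with earlier results of these data known, the shares over all genes are a description and not independent support. Every MRL/lpr library lay above every MRL/+ library for 8 members at 12 weeks, the 7 and Sdc1, against 8.59% of all genes, and for the 7 at 16 weeks, against 9.91% of all genes. The median log2 fold change of the members was 4.23 at 12 weeks and 4.58 at 16 weeks, where it was 4.58 also with Slamf7 set at its lower bound, against medians of -0.01 and 0.03 over all genes. Xbp1, Sdc1 and Fkbp11 were not called at either age. In whole tissue, more cells of a type and more RNA per cell cannot be told apart.

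**Figure D1:**
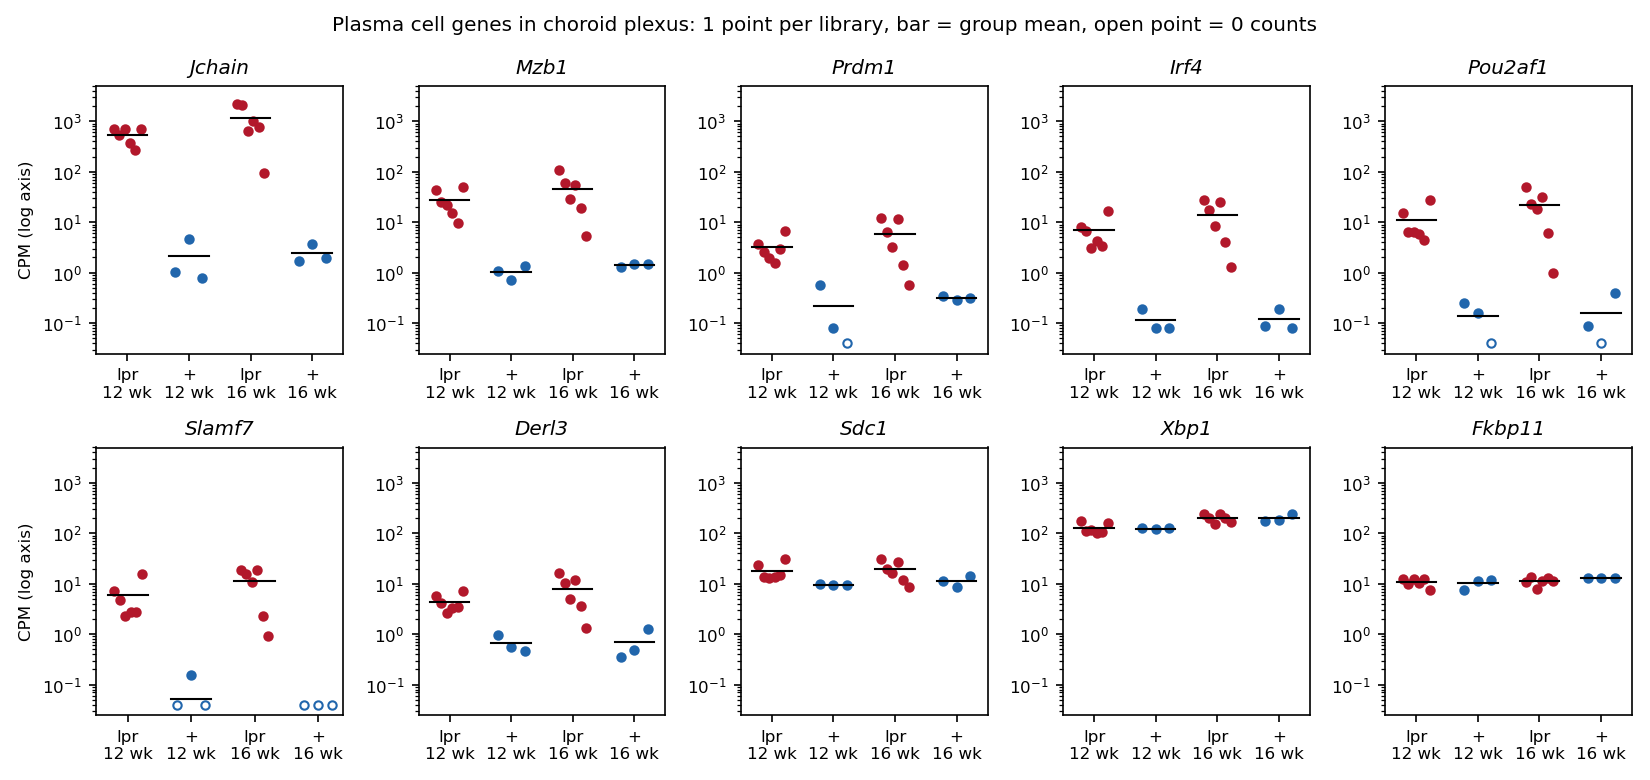
Level of each member in every library, in CPM on a log axis, with MRL/lpr libraries (6 per age) in red and MRL/+ libraries (3 per age) in blue, the group mean as a bar and libraries with 0 counts as open points at the foot of the panel. The MRL/lpr libraries of Jchain span 273.7 to 708 CPM at 12 weeks, and the MRL/+ libraries 0.784 to 4.55 CPM, while the groups of Xbp1 and Fkbp11 overlap at both ages.

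The transcription factors split. Gene coordinates below are those of the deposited table (GRCm38). Irf4 (ENSMUSG00000021356, chr13:30749226-30766927, plus strand, 9 exons), the interferon regulatory factor that commits activated B cells to the plasma cell fate, lay between 3.14 and 16.7 CPM in MRL/lpr at 12 weeks with a median of 5.51, and at 0.191, 0.0784 and 0.0784 CPM in MRL/+. At 16 weeks it lay between 1.31 and 28.1 CPM in MRL/lpr with a median of 12.9, and at 0.0877, 0.195 and 0.0798 CPM in MRL/+. The lowest MRL/lpr library was thus above the highest MRL/+ library at each age, although the MRL/+ libraries held 5 reads of Irf4 in all at 12 weeks and 4 at 16 weeks. The log2 fold change was 5.77 (SE 1.1, adjusted p = 0.00524) at 12 weeks and 6.79 (SE 1.15, adjusted p = 0.00209) at 16 weeks. Without MRL/+ replicate 1 of 12 weeks the 12-week value was 6.36 (adjusted p = 0.0462).

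Prdm1 (ENSMUSG00000038151, chr10:44437177-44528501, minus strand, 10 exons), the repressor that shuts down the B cell programme, had the lowest level of the members per kilobase of exon in MRL/lpr, at 0.581 ± 0.337 CPM per kb at 12 weeks (SD, n = 6). It lay between 1.58 and 6.76 CPM in MRL/lpr at 12 weeks with a median of 2.75, and at 0.572, 0.0784 and 0 CPM in MRL/+. The 16-week levels lay between 0.574 and 12.2 CPM in MRL/lpr with a median of 4.84, and at 0.351, 0.292 and 0.319 CPM in MRL/+. The groups did not overlap, but the lowest MRL/lpr library of 16 weeks, replicate 6, came close to the MRL/+ level. The fitted difference on the log2 scale was 3.76 (SE 1.02, adjusted p = 0.0361) at 12 weeks and 4.17 (SE 1.02, adjusted p = 0.0147) at 16 weeks. The call rested on few control libraries. At 12 weeks it was lost without MRL/lpr replicate 1 (adjusted p = 0.0599) and without MRL/+ replicate 1, 2 or 3 (0.0524, 0.150 and 0.154), and the log2 fold change was 6.08 without MRL/+ replicate 1. At 16 weeks it was lost without MRL/+ replicate 1, 2 or 3 (adjusted p = 0.0693, 0.0698 and 0.0785).

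Pou2af1 (ENSMUSG00000032053, chr9:51213708-51240080, plus strand, 5 exons), the B cell coactivator of Oct factors whose promoter is printed above, lay between 4.36 and 27.7 CPM in MRL/lpr at 12 weeks with a median of 6.34, and at 0.254, 0.157 and 0 CPM in MRL/+. In the older mice it lay between 0.983 and 49.6 CPM in MRL/lpr with a median of 20.8, and at 0.0877, 0 and 0.399 CPM in MRL/+. Its libraries were widely spread, with the highest MRL/lpr library of 16 weeks 50.4 times the lowest, yet the strains did not overlap. On the log2 scale the fold change was 6.16 (SE 1.3, adjusted p = 0.009) at 12 weeks and 6.9 (SE 1.32, adjusted p = 0.00356) at 16 weeks. The 12-week call was lost without MRL/+ replicate 1, 2 or 3 (adjusted p = 0.0596, 0.0559 and 0.0635). The log2 fold change was 7 without replicate 1 at 12 weeks, and 8.61 without MRL/+ replicate 3 at 16 weeks, where the call was kept.

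Xbp1 (ENSMUSG00000020484, chr11:5520659-5525893, plus strand, 4 exons), the factor of the unfolded protein response that enlarges the secretory apparatus, was abundant in both strains. It lay between 102.9 and 172.6 CPM in MRL/lpr at 12 weeks with a median of 113.7, and at 124.2, 118.6 and 125.8 CPM in MRL/+. At 16 weeks it lay between 155.5 and 239.7 CPM in MRL/lpr with a median of 201.8, and at 178.2, 187.1 and 241.8 CPM in MRL/+. At 12 weeks MRL/lpr replicates 1 and 6 were above all MRL/+ libraries and the other 4 below them, and at 16 weeks no MRL/lpr library was above the highest MRL/+ library. The fitted difference on the log2 scale was 0.06 (95% interval -0.32 to 0.45, adjusted p = 0.863) at 12 weeks and -0.01 (-0.40 to 0.37, adjusted p = 0.973) at 16 weeks. Gene counts do not separate the spliced from the unspliced transcript, so the active form was not measured.

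Of the genes of antibody assembly, Jchain and Mzb1 were called at both ages and kept their calls with any 1 library left out. Jchain (ENSMUSG00000067149, chr5:88519809-88527891, minus strand, 4 exons), which joins the units of secreted IgM and IgA polymers, lay between 273.7 and 708 CPM in MRL/lpr at 12 weeks with a median of 616, and at 1.02, 4.55 and 0.784 CPM in MRL/+. The 16-week levels lay between 93.2 and 2197 CPM in MRL/lpr with a median of 891, and at 1.67, 3.7 and 1.99 CPM in MRL/+. Even the lowest of the 12 MRL/lpr libraries, replicate 6 of 16 weeks, was above every MRL/+ library. On the log2 scale the fold change was 8.03 (SE 1.03, adjusted p = 0.00065) at 12 weeks and 8.87 (SE 1.06, adjusted p = 0.000414) at 16 weeks. Without MRL/+ replicate 2, the highest control library, the 12-week value was 9.22 (adjusted p = 0.00342).

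Mzb1 (ENSMUSG00000024353, chr18:35647266-35649367, minus strand, 4 exons), a chaperone partner of the endoplasmic reticulum that aids antibody assembly in B cells and plasma cells, lay between 9.67 and 49.6 CPM in MRL/lpr at 12 weeks with a median of 23.4, and at 1.08, 0.705 and 1.33 CPM in MRL/+. In the older mice it lay between 5.33 and 108.3 CPM in MRL/lpr with a median of 41.3, and at 1.32, 1.46 and 1.52 CPM in MRL/+. The MRL/+ libraries of 16 weeks were close together and below each MRL/lpr library. The log2 fold change was 4.71 (SE 0.87, adjusted p = 0.0047) at 12 weeks and 4.99 (SE 0.87, adjusted p = 0.00243) at 16 weeks. Per read of Mzb1, MRL/lpr libraries held 14.3 to 32.5 reads of Jchain at 12 weeks and MRL/+ libraries 0.588 to 6.44, and at 16 weeks MRL/lpr libraries held 17.5 to 39.5 and MRL/+ libraries 1.27 to 2.53. The strains did not overlap in this ratio at either age. In MRL/+ it rests on few reads, 9 to 19 of Mzb1 and 10 to 58 of Jchain per library. As a percent of the immunoglobulin constant region counts, Jchain overlapped between the strains. It was 10.2 to 35.6% in MRL/lpr and 9.26 to 20.6% in MRL/+ at 12 weeks. At 16 weeks it was 7.02 to 36.4% in MRL/lpr and 12.75 to 21.23% in MRL/+. A difference in proportion was thus seen against Mzb1 and not against these counts.

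Derl3 (ENSMUSG00000009092, chr10:75893413-75895941, plus strand, 4 exons), which helps to move misfolded proteins out of the endoplasmic reticulum for degradation and whose promoter is printed above, was higher in MRL/lpr over a measurable control level. It lay between 2.66 and 7.04 CPM in MRL/lpr at 12 weeks with a median of 3.81, and at 0.953, 0.549 and 0.471 CPM in MRL/+. At 16 weeks it lay between 1.31 and 16 CPM in MRL/lpr with a median of 7.57, and at 0.351, 0.487 and 1.28 CPM in MRL/+. The lowest MRL/lpr library and the highest MRL/+ library of 16 weeks nearly met. The fitted difference on the log2 scale was 2.72 (SE 0.69, adjusted p = 0.0242) at 12 weeks and 3.47 (SE 0.71, adjusted p = 0.00526) at 16 weeks. The 12-week call was lost without MRL/+ replicate 1, 2 or 3 (adjusted p = 0.0777, 0.115 and 0.128). Without MRL/+ replicate 3 of 16 weeks the 16-week log2 fold change was 4.23 (adjusted p = 0.0231).

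Fkbp11 (ENSMUSG00000003355, chr15:98724373-98728198, minus strand, 6 exons), a peptidyl-prolyl isomerase of secretory cells, did not separate the strains. It lay between 7.38 and 12.6 CPM in MRL/lpr at 12 weeks with a median of 11.3, and at 7.56, 11.2 and 11.8 CPM in MRL/+. The 16-week levels lay between 7.91 and 13.5 CPM in MRL/lpr with a median of 11.2, and at 12.7, 13.2 and 12.8 CPM in MRL/+. The groups overlapped at both ages, and the library with the lowest level at 12 weeks, MRL/lpr replicate 6, was the one with the highest Jchain. On the log2 scale the fold change was 0.09 (95% interval -0.32 to 0.49, adjusted p = 0.824) at 12 weeks and -0.19 (-0.59 to 0.21, adjusted p = 0.511) at 16 weeks.

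The pair of cell surface members differed from each other. Slamf7 (ENSMUSG00000038179, chr1:171632403-171653035, minus strand, 8 exons), a receptor of plasma cells that natural killer and other lymphoid cells also carry, lay between 2.26 and 15.8 CPM in MRL/lpr at 12 weeks with a median of 3.82, and at 0, 0.157 and 0 CPM in MRL/+. In the older mice it lay between 0.901 and 19.1 CPM in MRL/lpr with a median of 13.1, and no MRL/+ library held a read. At 12 weeks the MRL/lpr libraries pooled 485 reads and the MRL/+ libraries 2, and at 16 weeks the MRL/lpr libraries pooled 923 and the MRL/+ libraries 0. At 12 weeks the depth-adjusted ratio of counts was 126 with an exact 95% interval of 34.6 to 1041 (edgeR adjusted p = 0.0113), and at 16 weeks Slamf7 was at least 134.9-fold higher in MRL/lpr against a floor of 3 reads over the pooled MRL/+ libraries (adjusted p = 0.00338). The interval and the floor cover counting error only. The 12-week call was lost without MRL/+ replicate 1, 2 or 3 (adjusted p = 0.0801, 0.0508 and 0.0709). The fitted log2 fold change, 6.66 with all libraries, was 9.27 without MRL/+ replicate 2 and 6.07 without MRL/lpr replicate 6, where the call was kept (adjusted p = 0.0156). Slamf7 shares 423 exon bases with Gm37787 on the other strand, whose median count was 0, and the kit does not mark strand.

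Sdc1 (ENSMUSG00000020592, chr12:8771323-8793715, plus strand, 7 exons) encodes syndecan-1, the heparan sulphate proteoglycan known as CD138 on plasma cells. It lay between 13 and 30.3 CPM in MRL/lpr at 12 weeks with a median of 14.3, and at 9.85, 9.48 and 9.49 CPM in MRL/+. At 16 weeks it lay between 8.44 and 31.2 CPM in MRL/lpr with a median of 18.2, and at 11.3, 8.68 and 14.4 CPM in MRL/+. All 6 MRL/lpr libraries were above the MRL/+ libraries at 12 weeks and 4 of 6 were above the highest at 16 weeks. The log2 fold change was 0.91 (95% interval 0.13 to 1.70, adjusted p = 0.157) at 12 weeks and 0.74 (-0.03 to 1.52, adjusted p = 0.19) at 16 weeks, so neither passed the threshold.

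**Figure D2:**
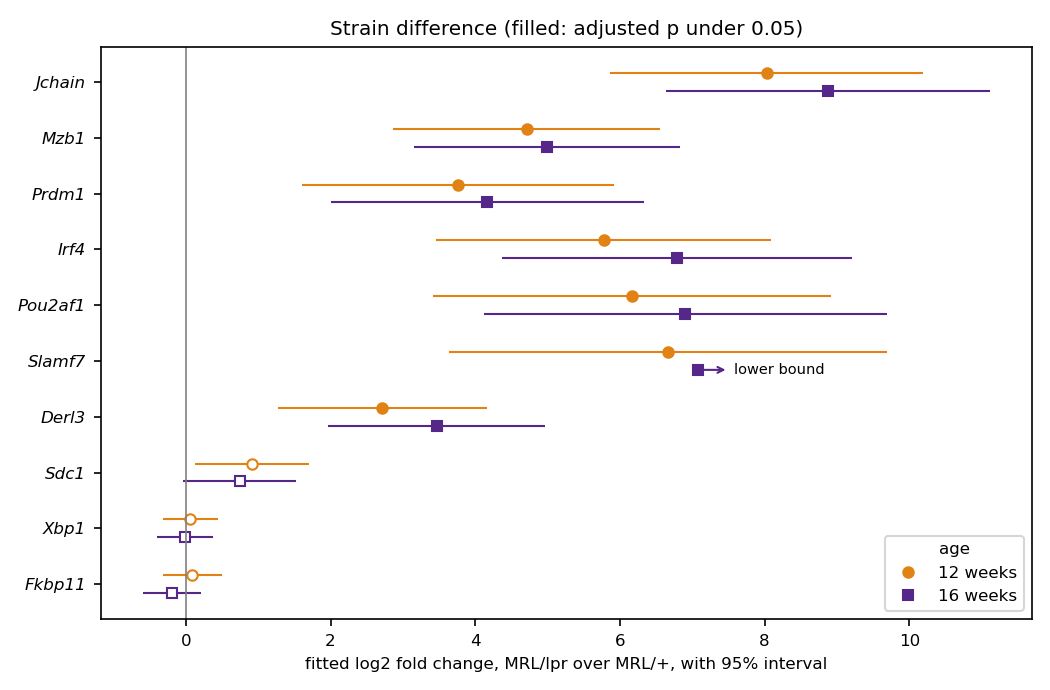
Fitted log2 fold change of MRL/lpr over MRL/+ for each member at 12 weeks (circles) and 16 weeks (squares), with 95% intervals, filled where the adjusted p was under 0.05, and the 16-week value of Slamf7 drawn as a lower bound. The 7 called members lie well to the right of 0 at both ages, while the intervals of Xbp1 and Fkbp11 include 0.

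Expressed as a share of the MRL/lpr mean, the control level divided the members. For 6 members (Jchain, Mzb1, Prdm1, Irf4, Pou2af1 and Slamf7) the MRL/+ mean was under 10% of the MRL/lpr mean at both ages, from 0.387% for Jchain to 6.69% for Prdm1 at 12 weeks. Derl3 was in between, with 14.9% at 12 weeks and 8.82% at 16 weeks. Above 50% stood 3 members, Xbp1 with 95.7% and 100.8%, Fkbp11 with 94.2% and 114%, and Sdc1 with 53% and 59.7%, at 12 and 16 weeks. The limits of 10% and 50% are descriptive. In the MRL/+ libraries that held these shared members, the 12 immunoglobulin constant region genes summed to 8.47 to 22 CPM at 12 weeks and 13.1 to 17.5 CPM at 16 weeks, while the MRL/lpr libraries held 1963 to 6947 CPM and 358.6 to 14440 CPM at those ages. Xbp1, Fkbp11 and Sdc1 were thus present where antibody transcripts were scarce and epithelium markers abundant, but the cells that held them were not identified.

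**Figure D3:**
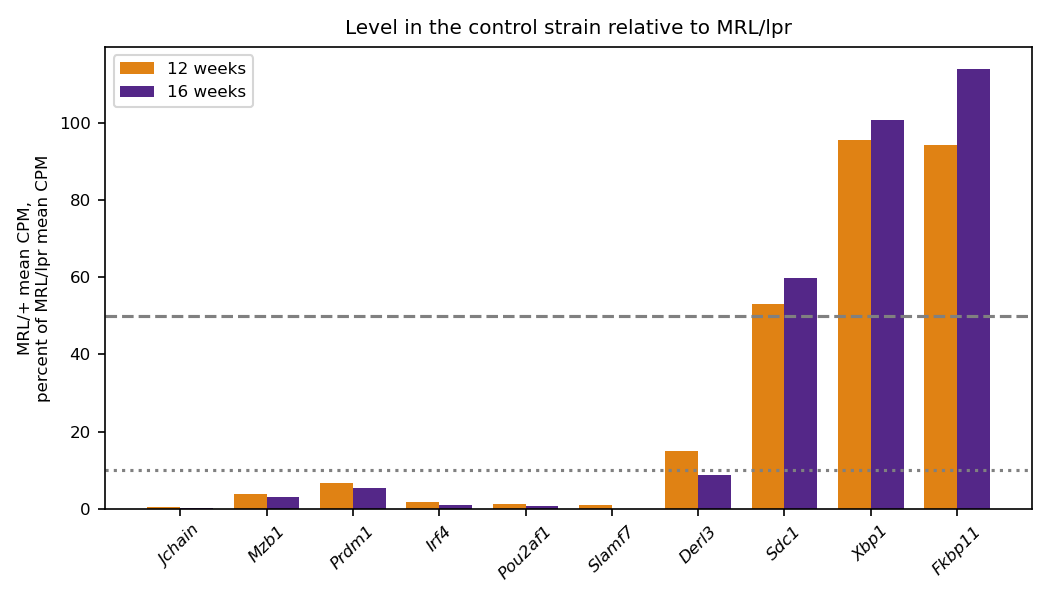
Mean level in MRL/+ as a percent of the mean level in MRL/lpr for each member at 12 and 16 weeks, with lines at 10% and 50%. Xbp1 and Fkbp11 reach 94.2% to 114%, Sdc1 53% and 59.7%, and 6 members stay under 10% at both ages.

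Per kilobase of exon, the order of levels differed between the strains. In MRL/lpr at 16 weeks Jchain was first at 454.6 ± 337.8 CPM per kb, followed by Xbp1 at 61.8 ± 10.5, Mzb1 at 50.6 ± 40.7, Fkbp11 at 15.5 ± 2.76, Pou2af1 at 8.54 ± 6.95, Sdc1 at 5.03 ± 2.3, Derl3 at 4.01 ± 2.81, Irf4 at 2.98 ± 2.37, Slamf7 at 2.44 ± 1.75 and Prdm1 at 1.06 ± 0.908 (SD, n = 6). In MRL/+ of that age Xbp1 was first at 62.3 ± 10.6 CPM per kb, followed by Fkbp11 at 17.6 ± 0.331, Sdc1 at 3.01 ± 0.747, Mzb1 at 1.58 ± 0.114, Jchain at 0.975 ± 0.435 and Derl3 at 0.354 ± 0.251, with the other 4 members under 0.1 (SD, n = 3). In MRL/lpr each neighbour from Xbp1 down overlapped the next within 1 SD, and Jchain stood apart by its mean and SD, whereas in MRL/+ Xbp1, Fkbp11, Sdc1 and Mzb1 stood apart by more than their SDs. The MRL/lpr libraries did overlap, since in replicate 6 of 16 weeks Jchain was at 37 CPM per kb, below Xbp1 at 52.3 CPM per kb. At 12 weeks the order again began with Jchain in MRL/lpr (216.9 ± 75.4 CPM per kb) and with Xbp1 in MRL/+ (37.8 ± 1.17 CPM per kb).

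Between the ages, no member was called. In MRL/lpr, 0 of 10 members passed at 16 over 12 weeks, against 0.0361% of all genes (6 genes), in MRL/+ 0 of 10, against 0% of all genes, and for the strain by age interaction 0 of 10, against 0% of all genes. Unadjusted p-values under 0.05 numbered 1117, 2173 and 2286 over all genes in these comparisons by edgeR, and the DESeq2 Wald test called 84, 10 and 0. Among the members, 1, 1 and 0 had an unadjusted p under 0.05, and the Wald test called 1, 0 and 0. The member in question was Xbp1. Its log2 fold change at 16 over 12 weeks was 0.65 in MRL/lpr (95% interval 0.33 to 0.96, adjusted p = 0.172) and 0.72 in MRL/+ (0.27 to 1.17, adjusted p = 0.379). Every MRL/+ library of 16 weeks was above every MRL/+ library of 12 weeks, while the MRL/lpr ages overlapped. The DESeq2 Wald test called Xbp1 in MRL/lpr (adjusted p = 0.00648) and not in MRL/+ (adjusted p = 0.186). Jchain averaged 1144 ± 850 CPM at 16 weeks and 546 ± 190 CPM at 12 weeks in MRL/lpr (SD, n = 6 each), with a log2 fold change of 1.07 (95% interval -0.06 to 2.19, adjusted p = 0.758).

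The spread between the MRL/lpr libraries was wider at 16 weeks for the 7 called members, with the highest library 12.2 to 50.4 times the lowest, where at 12 weeks it was 2.59 to 6.99 times the lowest; this difference in spread was not tested. It rests in part on replicate 6 of 16 weeks, since without the lowest library of each age the ratios were 3.38 to 8.61 at 16 weeks and 1.95 to 5.86 at 12 weeks. Replicate 6 of 16 weeks was the lowest MRL/lpr library of its age for all 7 called members and for Sdc1. It was also the lowest of its age in the summed immunoglobulin constant regions (358.6 CPM), T and natural killer cell markers (21.7 CPM), B cell programme (19.1 CPM) and myeloid and dendritic cell markers (372.6 CPM). Replicate 1 was the highest for the 7 and for Sdc1, with 2197 CPM of Jchain, 108.3 CPM of Mzb1 and 49.6 CPM of Pou2af1. At 12 weeks replicate 6 was the highest for the 7 called members and for Sdc1, although its Jchain level of 708 CPM was little above the 699 and 697 CPM of replicates 3 and 1.

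Within each age the members were set against Jchain over the 6 MRL/lpr libraries on log2 CPM. Of 18 relations (9 members at each age), 17 were positive, but none passed the adjustment over the 18 by an exact two-sided permutation test, whose smallest possible p is 0.00139. At 16 weeks Pearson's r was 0.954 for Mzb1 (exact permutation p = 0.00417, adjusted p = 0.0536) and Spearman's rho 0.943 (exact p = 0.0167, adjusted p = 0.075). With the 2 libraries farthest from the median left out, r was 0.771. The other r values of that age were 0.929 for Derl3, 0.918 for Pou2af1, 0.895 for Irf4, 0.854 for Slamf7, 0.853 for Prdm1, 0.839 for Sdc1, 0.626 for Xbp1 and 0.183 for Fkbp11, and without the 2 farthest libraries those of the first 7 fell to between 0.415 and 0.697, so they rest in part on those libraries. Xbp1 fell to 0.444, whereas Fkbp11 moved up to 0.634, above 6 of the other 8 members. At 12 weeks r was 0.89 for Mzb1 (0.453 without the 2 farthest), 0.711 for Xbp1, 0.705 for Pou2af1 and -0.231 for Fkbp11. Against the mean level of the epithelium markers, 0 of 20 relations passed, by Pearson or by Spearman. The nearest was Fkbp11 at 16 weeks, with r = 0.782 (exact permutation p = 0.0736, adjusted p = 0.971), which became -0.14 without the 2 farthest libraries.

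**Figure D4:**
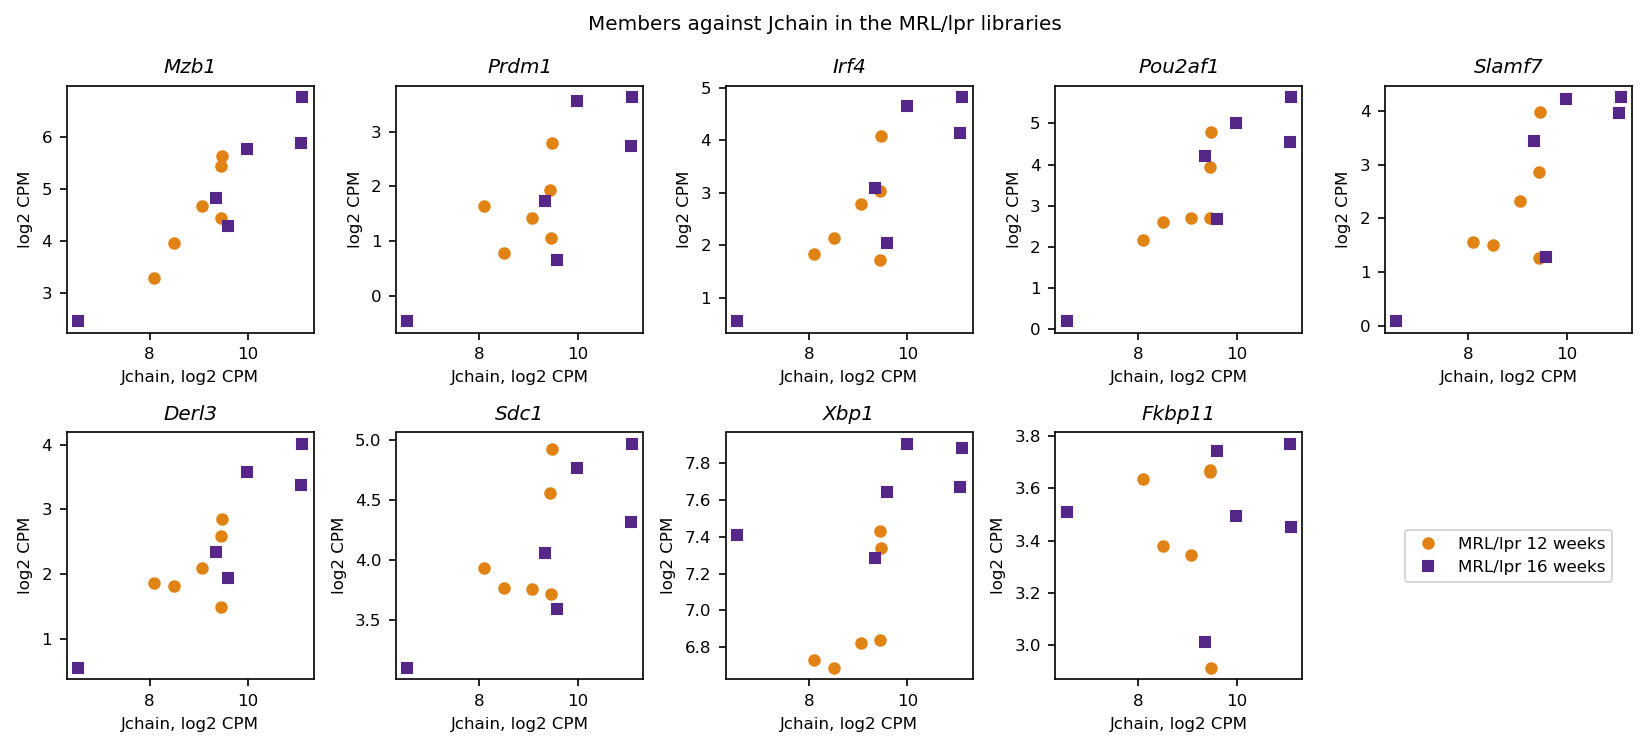
Level of 9 members against Jchain, both in log2 CPM, with 1 point per MRL/lpr library at 12 weeks (circles) and 16 weeks (squares). Mzb1 lies closest to a line with Jchain (r = 0.89 at 12 weeks and 0.954 at 16 weeks), Fkbp11 has the lowest r with all 6 libraries of each age (-0.231 and 0.183, the second 0.634 without the 2 farthest libraries), and the lowest point at 16 weeks is replicate 6.

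Likeness to Jchain was measured across the 12 MRL/lpr libraries on log2 CPM after the mean of each age was subtracted. Of the 13391 genes whose mean log2 CPM there was 1 or more, 12458 remained without the members, immunoglobulin and T cell receptor genes, mitochondrial genes and unnamed gene models, and the most alike of them were Plk4 (r = 0.96), Ly6c2 (0.95), Cytip (0.944), Plekhf2 (0.94), Samsn1 (0.94) and Btla (0.94). Among the members, ranked over all 13391, Mzb1 came nearest (r = 0.925, with 8 genes higher), followed by Pou2af1 (0.879, 59 higher), Derl3 (0.869, 81 higher), Irf4 (0.831), Prdm1 (0.792), Slamf7 (0.786), Sdc1 (0.735), Xbp1 (0.546) and Fkbp11 (0.0623). These are descriptions over libraries that share depth and composition. Replicate 6 of 16 weeks held Jchain at 6.545 log2 CPM, against 9.34 to 11.1 in the other MRL/lpr libraries of its age. That library weighs heavily on these r values, which were not computed without it.

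Another 17 genes used as plasma cell markers were measured. At 12 weeks 5 of 17 were higher in MRL/lpr and none lower, and at 16 weeks 8 of 17 were higher and none lower, with list medians of 0.66 and 1.45 against -0.01 and 0.03 over all genes. Their summed level did not separate the strains, at 297.4 to 569 CPM in MRL/lpr and 346.6 to 357.6 CPM in MRL/+ at 12 weeks, and at 322.5 to 652.9 CPM in MRL/lpr and 325.2 to 409.5 CPM in MRL/+ at 16 weeks. The largest parts of that sum, named after their values were seen, were Fam46c, Lman1 and Txndc5. They averaged 99.9, 75.1 and 66.4 CPM in MRL/+ at 12 weeks and were not called at either age. The sum thus says little about the less abundant genes that were called. At 12 weeks 5 of the 17 had a negative log2 fold change, 1 of them with an unadjusted p under 0.05, and at 16 weeks 1 did. Tnfrsf13b (TACI, a receptor for the survival factors BAFF and APRIL) averaged 4.84 ± 2.98 CPM in MRL/lpr and 0.398 ± 0.267 CPM in MRL/+ at 12 weeks (log2 fold change 3.59, adjusted p = 0.0124). Cd27, a receptor of memory B cells, plasma cells and T cells, averaged 4.18 ± 3.06 CPM in MRL/lpr and 0.21 ± 0.122 CPM in MRL/+ (4.22, adjusted p = 0.0134). Eaf2, a partner of the elongation factor Ell2 that is high in plasma cells, averaged 2.38 ± 0.832 CPM in MRL/lpr and 0.352 ± 0.179 CPM in MRL/+ (2.7, adjusted p = 0.00805). Lax1, an adaptor of lymphocyte signalling, averaged 8.77 ± 7.19 CPM in MRL/lpr and 0.0685 ± 0.0641 CPM in MRL/+, where the pooled libraries held 3 reads (adjusted p = 0.00403). The fifth, named after its values were seen, was Tnfrsf17 (BCMA), at 0.711 ± 0.289 CPM in MRL/lpr and 1 pooled read in MRL/+ (adjusted p = 0.0135). The 3 called at 16 weeks alone were Ell2, Bhlha15 and Cd38, named after their values were seen, with log2 fold changes of 2.92, 2.72 and 2.56 (adjusted p = 0.0157, 0.027 and 0.00879). At 12 weeks these 3 had 1.41, 1.42 and 1.64 and did not pass.

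A list of 37 genes of folding and secretion in the endoplasmic reticulum did not follow the 7 called members. At 12 weeks 0 of 37 were called by edgeR (DESeq2 called 0, and 1 had an unadjusted p under 0.05), with a median log2 fold change of -0.02, and at 16 weeks 1 was higher and 1 lower, with a median of -0.16. DESeq2 called 2 at 16 weeks. Of the 10 with an unadjusted p under 0.05 at that age, 9 were lower in MRL/lpr and 1 higher, and 27 of the 37 had a negative log2 fold change. Edem1, which passes misfolded glycoproteins to degradation, averaged 54.7 ± 29.3 CPM in MRL/lpr and 19 ± 4.43 CPM in MRL/+ at 16 weeks (log2 fold change 1.53, adjusted p = 0.0464). Dnajb9, a cochaperone of the unfolded protein response that was named after its values were seen, averaged 62.1 ± 7.12 CPM in MRL/lpr at 16 weeks and 88.7 ± 21 CPM in MRL/+ (-0.51, adjusted p = 0.03). At 12 weeks its means were 57.7 CPM in MRL/lpr and 68.6 CPM in MRL/+ and it did not pass. Sec61b, a subunit of the translocon, averaged 31.6 ± 7.31 CPM in MRL/lpr and 22.3 ± 2.05 CPM in MRL/+ at 12 weeks (0.5, adjusted p = 0.174), and Ssr4 and Ddit3 did not pass either (0.55 and -0.40). The list summed to 6637 to 8392 CPM in MRL/lpr and 7174 to 8493 CPM in MRL/+ at 12 weeks, and to 7261 to 11770 CPM in MRL/lpr and 10210 to 11800 CPM in MRL/+ at 16 weeks, so both strains held it at a high level.

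**Figure D5:**
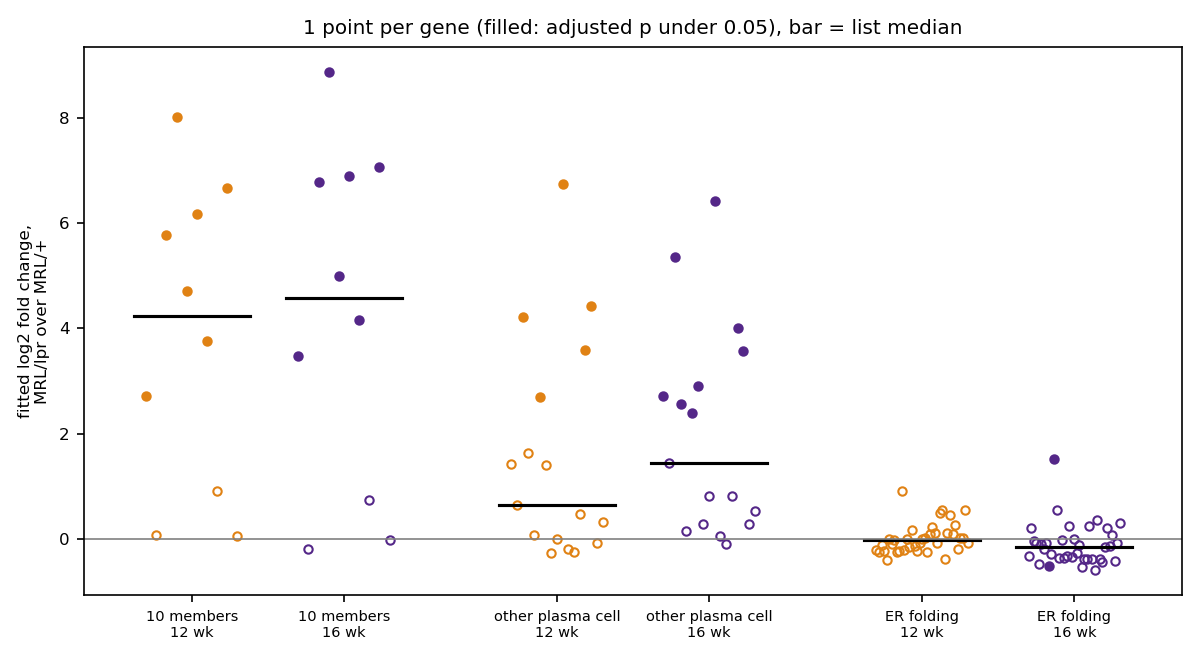
Fitted log2 fold change of MRL/lpr over MRL/+ for each gene of 3 lists (the 10 members, 17 other plasma cell genes and 37 genes of endoplasmic reticulum folding and secretion) at 12 and 16 weeks, filled where the adjusted p was under 0.05, with the list median as a bar and the 16-week value of Slamf7 at its lower bound. The medians are 4.23 and 4.58 for the members, 0.66 and 1.45 for the other plasma cell genes, and -0.02 and -0.16 for the folding and secretion genes.

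Most markers of other immune cells were also called higher in MRL/lpr, against 5.01% of all genes tested at 12 weeks and 8.49% at 16 weeks. Of 12 T and natural killer cell markers, 11 were tested and 10 were higher in MRL/lpr at each age; their summed level was 38.7 to 177 CPM in MRL/lpr and 0.705 to 1.72 CPM in MRL/+ at 12 weeks, and 21.7 to 203.9 CPM in MRL/lpr and 0.878 to 1.58 CPM in MRL/+ at 16 weeks. Cd3d and Cd3e were at 0 in MRL/+ at 12 weeks and Klrb1c at 16 weeks. Of 13 genes of the B cell programme, 12 were tested, and 8 were higher at 12 weeks and 9 at 16 weeks. Their summed level was 39 to 177 CPM in MRL/lpr and 7.37 to 25.9 CPM in MRL/+ at 12 weeks, and 19.1 to 220 CPM in MRL/lpr and 7.98 to 12.1 CPM in MRL/+ at 16 weeks, with Ms4a1 at 0 in MRL/+ at 12 weeks. Among the 12 B cell genes tested, 2 had a negative log2 fold change at 12 weeks and 0 at 16 weeks. Of 12 myeloid and dendritic cell markers, 7 were higher at 12 weeks and 10 at 16 weeks, with sums of 648.9 to 3678 CPM in MRL/lpr and 88.2 to 100.8 CPM in MRL/+ at 12 weeks and 372.6 to 2895 CPM in MRL/lpr and 110.8 to 160.6 CPM in MRL/+ at 16 weeks. Of 12 immunoglobulin constant regions, 10 were higher at 12 weeks and 11 at 16 weeks. The part of these cells in the levels of Irf4, Prdm1, Pou2af1 and Slamf7 was not tested. Of the 19 epithelium markers, 0 were called by edgeR at 12 weeks (DESeq2 called 1, and 3 had an unadjusted p under 0.05). At 16 weeks 3 were called lower (DESeq2 called 5), and 11 had an unadjusted edgeR p under 0.05, all of them lower. The log2 fold change was negative for 15 of 19 at 12 weeks and 18 of 19 at 16 weeks, with medians of -0.28 and -0.39.

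The number of members called at 12 weeks depended on the libraries used. Without the 4 libraries with most pineal, cerebellum or muscle transcripts, which left 2 MRL/+ libraries at each age, Jchain alone was called at 12 weeks (log2 fold change 7.74, adjusted p = 0.0431) and Jchain, Mzb1, Irf4 and Slamf7 at 16 weeks. All 7 members kept a positive log2 fold change there, from 3.11 for Derl3 at 12 weeks upward. Over all genes, the calls without these libraries were 34 at 12 weeks and 503 at 16 weeks. Without 1 MRL/+ library of 12 weeks at a time, 3 members were called at that age (Jchain, Mzb1 and Irf4), whichever library was left out. All 7 kept a positive log2 fold change in these fits, from 2.53 for Derl3 upward. Calls over all genes in these fits are not given here. A loss of calls in general therefore cannot be told apart from a loss particular to the members.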

How the data were processed

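Choroid plexus RNA of 18 libraries was measured as read counts per gene. The deposited table holds raw counts made by the authors, aligned with STAR 2.5.3a to GRCm38, and counted with featureCounts 1.26.0, per the submitters' processing notes, which also name DESeq2 1.16.1. For strand, annotation and multiple alignments the setting is not given in the sources used here. Counts were tested with edgeR 4.0.16 in R 4.3.3 (filterByExpr by group, TMM, robust quasi-likelihood, 1 mean per group, all libraries, Benjamini-Hochberg over 16598 genes). CPM and the deposited gene length gave levels per kb, and log2 CPM used a prior count of 2. The fit was also run on simulated counts of known change. Those changes were smaller than the largest of the members, so that run does not cover them. No pair of libraries within a group held the same library (smallest chi-square per gene 6.1 over 36 pairs). Named genes were the 10 members, up to 4 genes per list with the smallest p at 12 weeks, and the 6 most like Jchain; exceptions are marked, and markers at 0 are named as such. Members and lists were chosen with earlier results of these data known. Alternatives were DESeq2 1.42.0, its size factors, no filter, a replicate block, only the groups compared, scaling to epithelium counts, and libraries left out. Promoters came from RefSeq.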

Additional observations from a re-analysis of the deposited data

Results flagged for a closer look

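In 20 groups of a member's libraries screened on CPM for a library far from the others, 2 stood out. Chance flags about 1 in 20 groups if levels are normally distributed, which was not tested for CPM. Irf4 in MRL/lpr at 12 weeks was highest in replicate 6, at 16.7 CPM against 8.09 CPM in the next library, a gap of 0.636 of the group's range where the critical value for 6 libraries is 0.625. Slamf7 was highest in the same library, at 15.8 CPM against 7.17 CPM in the next, a gap of 0.637 of the range. Both flags came from that library, so they are not 2 independent events, and both genes remained called at 12 weeks without it.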

How the results depend on the processing

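The 7 members called at 12 weeks became 3 to 7 with 1 library left out, where calls over all genes are not given here. They became 1 without the 4 libraries with most pineal, cerebellum or muscle transcripts, where 28 of all genes were higher and 6 lower. The 7 called at 16 weeks became 4 without those 4 libraries, where 450 of all genes were higher and 53 lower. No member called between ages in MRL/lpr became 1, Xbp1, with the DESeq2 Wald test. Under the other alternatives these counts stayed within 1.5 times. No label gives a shared litter or batch, so the libraries were not paired by replicate number. After group means were removed, same-numbered libraries correlated from -0.619 to 0.45. This cannot exclude a pairing, since libraries of different number were not compared. With a replicate block 7 members were called at each age, and over all genes 855 were higher at 12 weeks and 1212 at 16 weeks. Values near 0 changed sign without passing. For Xbp1 at 16 weeks the log2 fold change was 0.0104 with DESeq2 size factors or the Wald test, 0.00952 with no filter, 0.00977 with only the groups compared, 0.557 with scaling to epithelium counts and -0.0963 to 0.135 with 1 library left out. With 1 left out, Xbp1 at 12 weeks ranged from -0.0383 to 0.13, Fkbp11 at 12 weeks from -0.0759 to 0.207 and Sdc1 at 16 over 12 weeks in MRL/lpr from -0.084 to 0.344. Fkbp11 at 12 weeks was -0.101 without the 4 libraries, and at 16 weeks 0.329 with epithelium scaling. Epithelium scaling moved the median of all genes at 16 weeks to 0.58, with 3272 genes higher and 38 lower, so Xbp1 and Fkbp11 lay near or below that median; it left 5 members called at 12 weeks. All-gene calls at 12 weeks were 1665 with the Wald test and 576 with epithelium scaling, against 1055 as reported. With few reads in MRL/+, depth limits the fold changes of Irf4, Prdm1, Pou2af1 and Slamf7. The causes of these shifts were not tested.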
